A study of Mus musculus with 16 samples.

Results

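The 10 genes described here encode the hormones that mouse beta cells package into secretory granules (Ins1, Ins2 and Iapp) and proteins that process or pack them (Pcsk1, Pcsk2, Pcsk1n, Cpe, Chga, Chgb and Scg2). They were taken by symbol, as beta cell hormones, convertases and granins. The rule uses no measured value, but it was drawn up with earlier results of these data known. All 10 were found among the 52636 genes of the count table. RNA was sequenced from pancreatic islets of 12-week-old male mice, of the strain C57BL/6JRj by the sample labels and C57BL/6NRj by the study's methods. After isolation the islets were cultured for 10 days in medium with 2% human serum, and the 4 conditions were no addition (control), 50 pg/ml recombinant mouse IL-1β, 0.2 mM sodium butyrate, and both agents together. Each condition had 4 libraries, replicates 1 to 4, and every library was made from 500 islets that several mice had contributed to, so that replicates are pools rather than animals.

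Insulin is made as proinsulin, which is folded in the endoplasmic reticulum, sorted into granules and cut there. The prohormone convertases PC1/3 (encoded by Pcsk1) and PC2 (Pcsk2) cut at paired basic residues, and carboxypeptidase E (Cpe) then trims the basic residues left at the cut ends. Proinsulin and islet amyloid polypeptide (IAPP) pass through the same granules and are cut by the same enzymes, proSAAS (Pcsk1n) gives rise to an inhibitor of PC1/3, and the granins chromogranin A (Chga), chromogranin B (Chgb) and secretogranin II (Scg2) are acidic proteins that aggregate in forming granules. Mice have a pair of insulin genes, of which Ins1 is a retroposed copy of Ins2. IL-1β is an inflammatory cytokine that beta cells respond to through its receptor, while butyrate, a short-chain product of fibre fermentation in the gut, inhibits histone deacetylases.

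The RefSeq promoter table, on GRCm38.p6, held 8 of the 10 genes and lacked Ins2 and Cpe. The windows of 250 bases before the RefSeq start are shown for Ins1 and Iapp, because the products of these hormone genes share a granule but the genes changed in opposite directions with IL-1β. The Iapp window stops 2 bases short of the RefSeq start. Capitals mark CATCTG, an E box of the kind bound by NEUROD1, and TAAT or its reverse ATTA, the core bound by homeodomain factors such as PDX1. In the Iapp window ATTAAT is a pair of overlapping matches.
Ins1, chr19:52264047-52264296, plus strand: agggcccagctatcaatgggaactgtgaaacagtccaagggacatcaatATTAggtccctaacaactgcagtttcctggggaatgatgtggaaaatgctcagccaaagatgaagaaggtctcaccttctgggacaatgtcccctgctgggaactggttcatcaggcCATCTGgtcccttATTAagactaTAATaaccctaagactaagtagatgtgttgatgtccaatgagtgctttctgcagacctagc
Iapp, chr6:142298175-142298422, plus strand: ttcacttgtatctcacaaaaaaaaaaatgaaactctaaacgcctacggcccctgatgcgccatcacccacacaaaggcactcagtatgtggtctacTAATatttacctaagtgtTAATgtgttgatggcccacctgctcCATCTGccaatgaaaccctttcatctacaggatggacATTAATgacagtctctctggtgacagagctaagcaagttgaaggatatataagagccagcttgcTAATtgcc
CATCTG (or its reverse CAGATG) was found once in each of these windows and in no window of the other 6 genes, beside 14.4% of 32851 windows of the same length. The Ins1 match began 84 bases before the start and the Iapp match 111 bases before it. TAAT or ATTA was found 3 times in the Ins1 window and 5 times in the Iapp window, and 54.9% of all windows held at least 1 match.

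Windows of 4 of the 8 genes held TGACGT or its reverse ACGTCA, the core of the cAMP response element, beside 6.47% of all windows. These were Pcsk1, Chga, Chgb and Scg2, and the sites are shown because these are granule genes that differed in how they responded. Each line gives 30 bases, read on the strand of the gene, with TGACGT or, where both orientations overlap, TGACGTCA in capitals.
Pcsk1 site 1, chr13:75089768-75089797, plus strand: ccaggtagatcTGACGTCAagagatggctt
Pcsk1 site 2, chr13:75089795-75089824, plus strand: ctttcgtcgattTGACGTgtaaacactcat
Chga, chr12:102554885-102554914, plus strand: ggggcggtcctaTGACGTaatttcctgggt
Chgb, chr2:132781559-132781588, plus strand: gggctgctccgTGACGTCAgggctgagcga
Scg2, chr1:79440076-79440105, minus strand: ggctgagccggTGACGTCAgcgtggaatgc
The first capital lay 78 and 50 bases before the RefSeq start in Pcsk1, 44 in Chga, 72 in Chgb and 68 in Scg2. By the GENCODE gene bounds, which start further upstream for these 2 genes, the Chgb and Scg2 sites lie inside the gene. No match was found in the windows of Ins1, Iapp, Pcsk2 and Pcsk1n, which says only that these letters are not in these 250 bases. Of the 4 genes that held the core, Chgb and Pcsk1 were raised by IL-1β, Scg2 was lowered and Chga was not called, as given below with their values.

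The libraries held 18635943 to 25955943 counts. Levels are given as CPM, the count divided by the library total and by edgeR's TMM factor (0.949 to 1.07) and multiplied by 1000000, and a change is called raised or lowered at an edgeR FDR under 0.01, that is, a Benjamini-Hochberg adjusted p over the 18587 genes tested. Markers of beta cells were together high in every condition, though most of them were lowered by IL-1β. Summed over 9 beta cell markers, 3 of which are hormone genes described here, the level was 214201 to 236969 CPM in control islets against 137656 to 179274 CPM in islets given IL-1β. It was 138004 to 170160 CPM with both agents and 222584 to 262014 CPM with butyrate. Ins2 (mean 144877 CPM), Ins1 (51416) and Iapp (21931) made up most of the mean control sum of 221334 CPM. The sum therefore largely repeats the values of these hormone genes. Of the 9 markers, IL-1β lowered 7 (Ins1, Ins2, Ucn3, Mafa, Pdx1, Nkx6-1 and Slc2a2) and raised 1 (Iapp), beside 6.59% lowered and 11.2% raised among all tested genes. Both agents against control gave the same calls, beside 14.8% lowered and 15.8% raised. Butyrate alone raised 3 (Iapp, Pdx1 and G6pc2) and lowered 1 (Ucn3), beside 8.52% raised and 11.4% lowered. Beside these, 7 macrophage markers together had 127 to 140 CPM in control islets, 169 to 205 CPM with IL-1β, 93.7 to 123 CPM with both agents and 84.0 to 104 CPM with butyrate, and 6 of the 7 were raised and C1qa lowered by IL-1β. C1qa made up most of the sum in control islets, with 99.4 to 124 CPM. With both agents against control 4 of the 7 were raised (median log2 fold change 1.25, beside 2.19 with IL-1β) and C1qa was lowered, although the sum was lower. The 5 duct markers summed to 125 to 133 CPM in control islets, against 231 to 339 CPM in islets given IL-1β, where Epcam and Spp1 were raised, and 315 to 583 CPM in those given both agents, where Spp1 was raised against control. The 6 acinar markers summed to at most 29.9 CPM in any library, and Amy2a5 was at 0 in every library of 3 conditions. The 6 alpha cell markers together ran from 21050 to 24201 CPM in control libraries and from 20219 to 25733 CPM in those given IL-1β, while those with both agents (24838 to 27845 CPM) all lay above control, and 4 of the 6 were lowered there and 0 raised. The 2 PP cell markers had 2230 to 3044 CPM in control libraries and 3184 to 3914 CPM with butyrate, and neither was called. The 3 delta cell markers, led by Sst, had 1686 to 1985 CPM in control libraries, 1736 to 2212 CPM with IL-1β, 2617 to 3178 CPM with both agents and 2384 to 2764 CPM with butyrate. The part of these shifts in the results below was not tested, and in bulk RNA fewer cells of a type and less RNA per cell cannot be told apart.

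The 10 genes together took 23.7 to 25.5% of all counts of control libraries (at this depth counting error gives a 95% Wilson interval of at most ± 0.0181 percentage points for the share of the insulins). With IL-1β they took 18.4 to 21.7%, with both agents 18.7 to 20.7% and with butyrate 24.7 to 27.7%. Most of this was insulin. Ins1 and Ins2 together took 18.6 to 20.4% of the counts in control islets, 11.9 to 14.6% with IL-1β, 11.1 to 13.4% with both agents and 19.1 to 21.9% with butyrate, so the control and IL-1β libraries did not overlap.

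**Figure D1:**
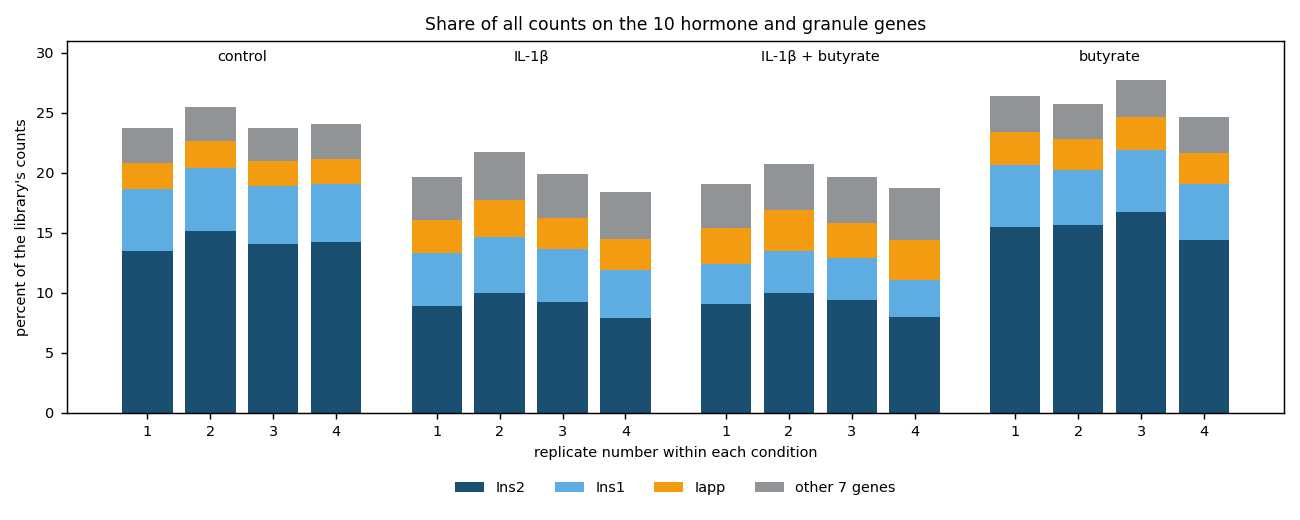
Percent of all counts of each library (y axis) that fell on Ins2, Ins1, Iapp and the other 7 genes, as stacked bars for the 16 libraries (x axis, replicate number within each condition). The insulins took 18.6 to 20.4% of the counts of control libraries, against 11.9 to 14.6% of those given IL-1β.

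Levels of different genes are compared per kilobase of transcript, using the transcript with the longest coding sequence. In control islets Ins2 led with 157819 ± 8551 CPM per kilobase (SD, n = 4), followed by Ins1 with 48414 ± 2847 and Iapp with 26139 ± 1511. Chga (3165 ± 85.4), Scg2 (3136 ± 68.0) and Cpe (3025 ± 185) came next, and the libraries of neighbours in this trio overlapped. Pcsk2 had 1085 ± 39, Chgb 705 ± 18.9, Pcsk1n 393 ± 33.6 and Pcsk1 167 ± 11.8 CPM per kilobase, with no overlap between neighbours. With IL-1β the order was Ins2, Ins1, Iapp, Cpe, Chga, Chgb, Scg2, Pcsk2, Pcsk1n and Pcsk1, and Ins1 and Iapp overlapped, as did Chga and Chgb, and Chgb and Scg2. With both agents Iapp (36584 ± 3095) stood above Ins1 (30501 ± 1985), and the libraries did not overlap. When the union of all exons was used as the length, Ins2 came to 110425, Chga to 2163 and Cpe to 2455 CPM per kilobase in control islets, and the order was Scg2 (3136), Cpe and Chga without overlap. On that length Pcsk2 (648) lay just below Chgb, overlapping by 1 library on each side, and with both agents Iapp (29487 to 35191) overlapped Ins1 (27751 to 32402), so these orders depend on the transcript model.

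IL-1β raised 5 of the 10 genes against control (Iapp, Pcsk1, Pcsk1n, Cpe and Chgb) and lowered 4 (Ins1, Ins2, Pcsk2 and Scg2), where 11.2% of all tested genes were raised, 6.59% lowered and 17.8% called in either direction. These shares, here and below, are not matched for level. The 10 genes had at least 12085 counts in every library, and small changes are harder to call in tested genes with few counts. In 8 of the 10 genes the control and IL-1β libraries did not overlap. The share of all tested genes without overlap was not counted, so this number has no background beside it. The median log2 fold change over the 10 genes was 0.16, beside -0.03 over all genes tested. Only 1 gene stayed lowered without control replicate 1, IL-1β replicate 3 or IL-1β replicate 4, and 2 without control replicate 2. Without control replicate 3 or IL-1β replicate 2, 3 genes were raised.

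Butyrate added to IL-1β raised 1 gene against IL-1β alone (Chga) and lowered 4 (Ins1, Pcsk1, Pcsk2 and Cpe), beside 8.41% raised, 11.1% lowered and 19.5% called among all genes. Without IL-1β replicate 2, 2 genes were raised. Butyrate alone raised 3 genes against control (Iapp, Chga and Scg2) and lowered 3 (Pcsk1, Pcsk2 and Cpe), beside 8.52% raised, 11.4% lowered and 19.9% called among all genes. The comparison of both agents with butyrate alone gave 3 raised genes (Pcsk1, Cpe and Chgb) and 4 lowered genes (Ins1, Ins2, Pcsk2 and Scg2), beside 9.92% raised, 4.86% lowered and 14.8% called. Against control, both agents raised 5 genes (Iapp, Pcsk1, Pcsk1n, Chga and Chgb) and lowered 3 (Ins1, Ins2 and Pcsk2), beside 15.8% raised, 14.8% lowered and 30.6% called. These comparisons share libraries. The control libraries serve in IL-1β, butyrate and both agents against control. Those given IL-1β serve in IL-1β against control and in both agents against IL-1β. Those given butyrate serve in butyrate against control and in both agents against butyrate. Every comparison of both agents uses the same libraries with both agents.

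**Figure D2:**
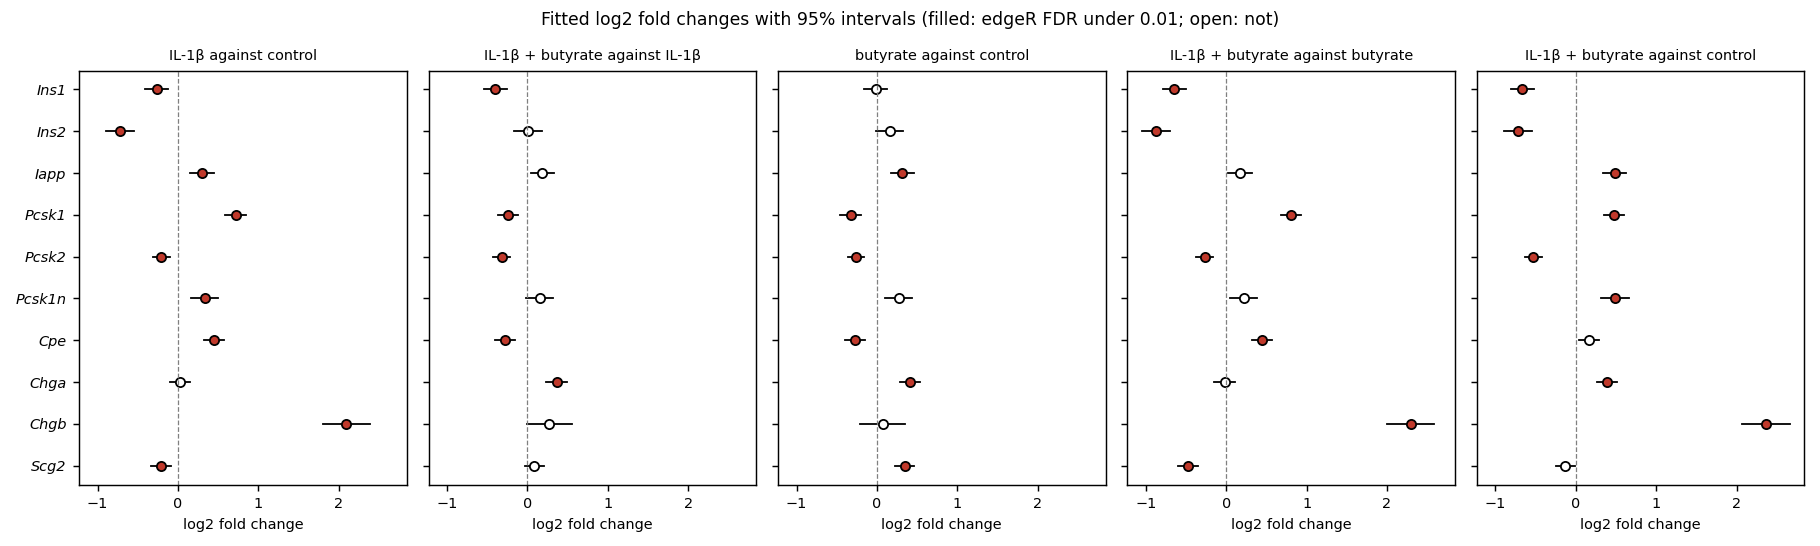
Log2 fold change (x axis) of each of the 10 genes (y axis) in 5 comparisons, with 95% intervals as lines; filled points had an edgeR FDR under 0.01. Chgb stands apart at 2.09 in IL-1β against control, 2.29 in both agents against butyrate and 2.36 in both agents against control.

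Both insulin genes were lowered by IL-1β, Ins2 more than Ins1, and adding butyrate to IL-1β brought Ins1 further down while Ins2 was not called. Ins1 (chromosome 19, 52264297 to 52265476, plus strand) had 53795, 54146, 49651 and 48070 CPM in control replicates 1 to 4 and 44647, 46366, 42658 and 37678 CPM with IL-1β. It had 32443, 34411, 33244 and 29472 CPM with both agents and 54528, 47363, 54391 and 47223 CPM with butyrate. All IL-1β libraries were below all control libraries, the libraries with both agents were lower still, and the butyrate libraries overlapped the control libraries. The log2 fold change of Ins1 was -0.26 ± 0.07 (SE; FDR by edgeR 0.00506) for IL-1β against control, and -0.40 ± 0.07 (edgeR FDR 6.27e-05) with both agents against IL-1β. Ins1 was 0.637-fold of its level in butyrate islets when IL-1β was also present (edgeR FDR 3.77e-08), and 0.630-fold of control. Butyrate alone gave -0.02 (95% interval -0.16 to 0.13, edgeR FDR 0.904). The call of IL-1β against control was lost without control replicate 1 (edgeR FDR 0.0174), control replicate 2 (0.0234), IL-1β replicate 3 (0.0177) or IL-1β replicate 4 (0.0303, with a log2 fold change of -0.19), with scaling to Ppia (0.0150) and in a fit of the compared conditions only (0.0185).

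Ins2 (chromosome 7, 142678656 to 142743381, minus strand) had 138712, 156380, 142588 and 141830 CPM in control replicates 1 to 4 and 89341, 99704, 88995 and 73516 CPM with IL-1β. With both agents it had 86827, 99250, 91448 and 75621 CPM, and with butyrate 163297, 160712, 175985 and 146344 CPM. The libraries with IL-1β, with or without butyrate, were all below those without it, and within each of these pairs of conditions the libraries overlapped. IL-1β lowered Ins2 to 60.7% of control (log2 fold change -0.72 ± 0.08, edgeR FDR 2.27e-07), and no alternative ended this call. Both agents against butyrate gave -0.87 ± 0.08 (edgeR FDR 1.10e-08) and both agents against control -0.71 (edgeR FDR 1.45e-07). For both agents set against IL-1β the log2 fold change was 0.01 (95% interval -0.17 to 0.18, edgeR FDR 0.965), and butyrate against control gave 0.16 (95% interval -0.01 to 0.33, edgeR FDR 0.171).

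**Figure D3:**
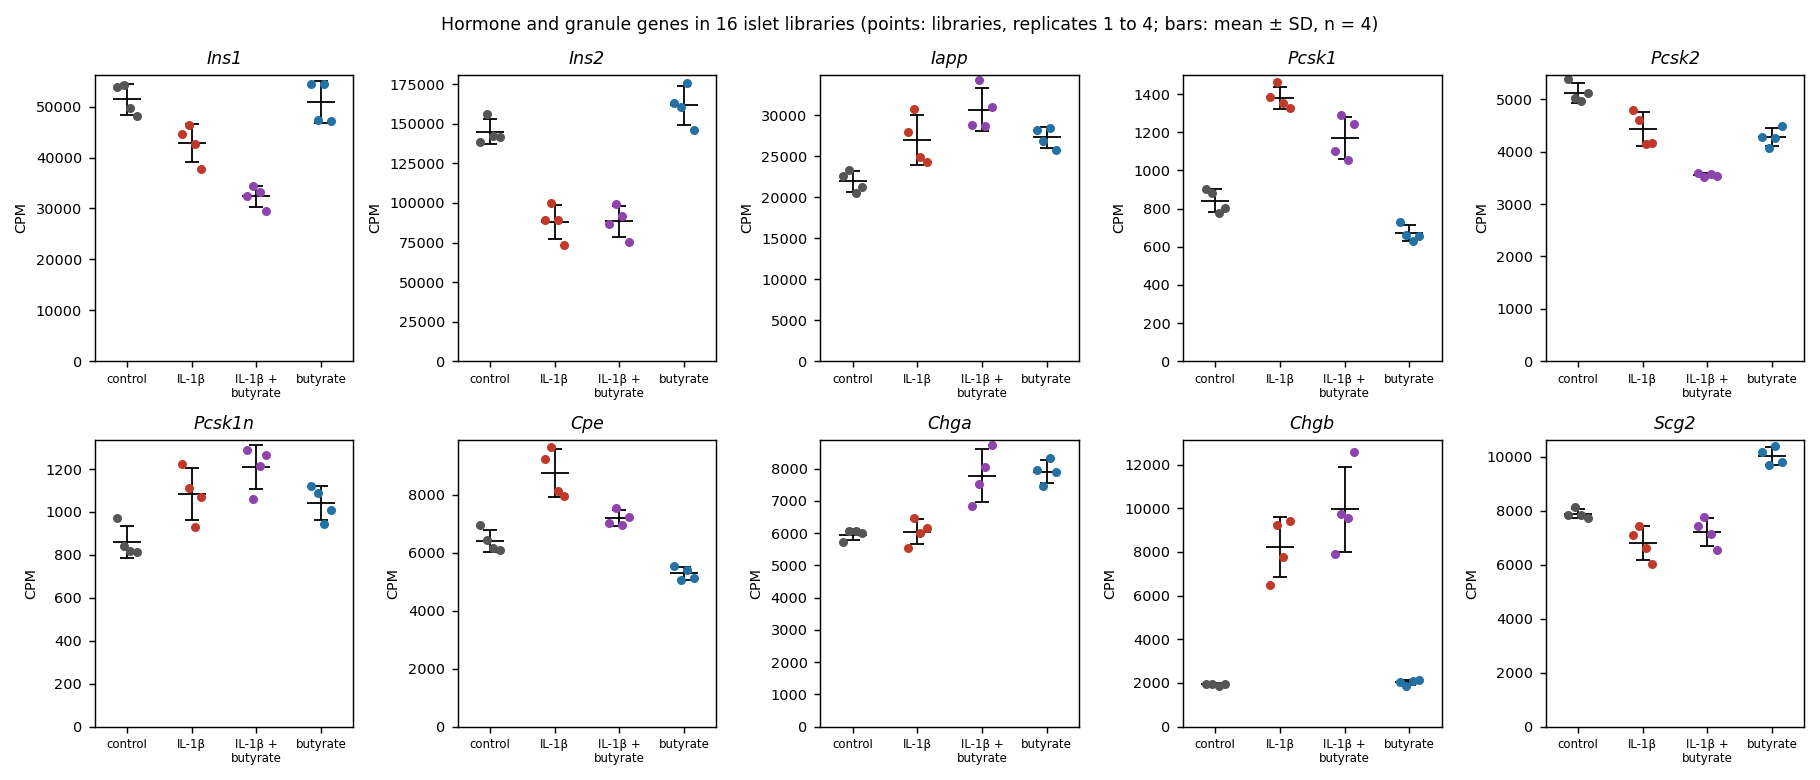
CPM (y axes, each from 0) of the 10 genes in the 16 libraries, grouped by condition (x axis), with points for replicates 1 to 4 from left to right and bars for the mean ± SD. Ins2 lay at 73516 to 99704 CPM with IL-1β, below its 138712 to 156380 CPM in control libraries, and Chgb at 6477 to 9429 CPM with IL-1β, above its 1860 to 1970 CPM in control libraries.

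Reads of the insulin genes can be told apart at most positions. Of the 1013 stretches of 50 bases in the Ins1 transcript, 7 were also in Ins2 (0.691%), and no stretch of 75 bases was shared. The ratio of counts of 2 genes in the same library does not depend on the scaling between libraries, so it was used to compare the insulin genes with each other. Ins1 had 0.388, 0.346, 0.348 and 0.339 counts per count of Ins2 in control replicates 1 to 4 and 0.50, 0.465, 0.479 and 0.513 with IL-1β. With both agents the ratio was 0.374, 0.347, 0.364 and 0.390, and with butyrate 0.334, 0.295, 0.309 and 0.323. The ratio was thus higher with IL-1β than in any control library, within the range of the control libraries in 3 of the 4 libraries with both agents and just above it in replicate 4, and lower than in any control library with butyrate alone. The ratio was 1.38-fold higher with IL-1β than in control, 0.753-fold with both agents against IL-1β, and 0.887-fold with butyrate against control. In each of these 3 comparisons the exact two-sided permutation test gave p = 0.0286, the smallest that 4 against 4 libraries allow, and 0.0514 after adjusting over 9 tests of 3 ratios.

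**Figure D4:**
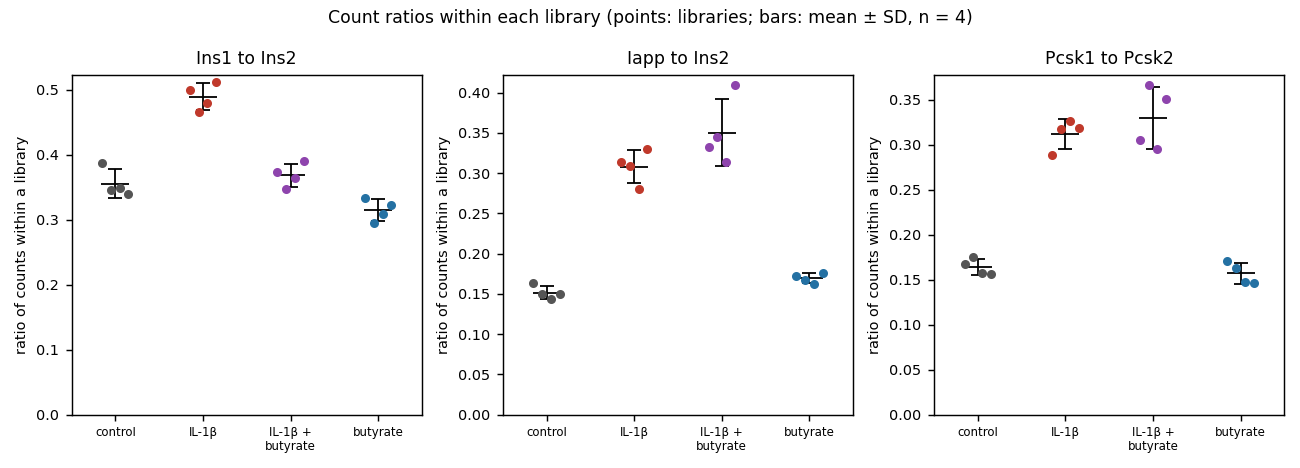
Ratio of counts within a library (y axes, from 0) for Ins1 to Ins2, Iapp to Ins2 and Pcsk1 to Pcsk2 in the 4 conditions (x axis), with points for libraries and bars for the mean ± SD. Ins1 to Ins2 was 0.465 to 0.513 with IL-1β and 0.295 to 0.390 in the other conditions.

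Iapp, which encodes the amyloid-forming peptide that is released with insulin, was raised by IL-1β, which lowered both insulin genes, and also by butyrate alone, where neither insulin gene was called. Iapp (chromosome 6, 142298423 to 142303961, plus strand) had 22603, 23329, 20529 and 21261 CPM in control replicates 1 to 4 and 27990, 30783, 24905 and 24264 CPM with IL-1β. It had 28838, 34276, 28720 and 30943 CPM with both agents and 28186, 26799, 28495 and 25741 CPM with butyrate. Every library of the 3 exposed conditions was above every control library. The fold change was 1.23 with IL-1β (log2 fold change 0.30 ± 0.07, edgeR FDR 0.00185), 1.25 with butyrate (0.32 ± 0.07, edgeR FDR 0.00106) and 1.40 with both agents (0.49 ± 0.07, edgeR FDR 2.84e-06), all against control. Both agents against IL-1β gave a log2 fold change of 0.19 (95% interval 0.04 to 0.33) with an edgeR FDR of 0.0470, and both agents against butyrate 0.17 (0.02 to 0.31) with an edgeR FDR of 0.0931. The IL-1β call was lost without control replicate 3 (edgeR FDR 0.0122) or IL-1β replicate 2 (0.0120). Without IL-1β replicate 2, both agents against IL-1β passed the threshold, with a log2 fold change of 0.25 (edgeR FDR 0.00596). Scaling to Ppia gave butyrate against control an edgeR FDR of 0.0217.

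Iapp had 0.163, 0.149, 0.144 and 0.150 counts per count of Ins2 in control replicates 1 to 4 and 0.313, 0.309, 0.280 and 0.330 with IL-1β, which is 2.03-fold higher (exact permutation p = 0.0286, adjusted 0.0514) with no overlap. With both agents the ratio was 0.332, 0.345, 0.314 and 0.409, and with butyrate it was 0.173, 0.167, 0.162 and 0.176. These overlapped with the IL-1β and the control libraries by 1 library on each side. The exact permutation p was 0.0571 both for both agents against IL-1β and for butyrate against control, with an adjusted p of 0.0735.

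The convertases moved apart. IL-1β raised Pcsk1, whose product makes the first cuts in proinsulin, and lowered Pcsk2, and butyrate lowered both of them, in the absence and in the presence of IL-1β. Pcsk1 (chromosome 13, 75089826 to 75134861, plus strand) had 903, 880, 779 and 803 CPM in control replicates 1 to 4 and 1383, 1461, 1356 and 1328 CPM with IL-1β. It had 1101, 1289, 1053 and 1241 CPM with both agents and 730, 664, 630 and 659 CPM with butyrate. The 4 conditions did not overlap and stood in the order butyrate, control, both agents and IL-1β. IL-1β raised Pcsk1 1.64-fold (log2 fold change 0.72 ± 0.06, edgeR FDR 8.65e-10), and butyrate lowered it to 79.7% of control (-0.33 ± 0.06, edgeR FDR 0.000197). With butyrate on top of IL-1β, the value against IL-1β alone was -0.24 ± 0.06 (edgeR FDR 0.00412) and both agents against butyrate 0.80 ± 0.06 (edgeR FDR 1.25e-10). The call of both agents against IL-1β was lost without IL-1β replicate 2 (edgeR FDR 0.0161), replicate 1 of both agents (0.0116) or replicate 3 of both agents (0.0153), with upper-quartile scaling (0.0166) and with the compared conditions only (0.0124).

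Pcsk2 (chromosome 2, 143546156 to 143816285, plus strand), whose product cuts proinsulin and is also the main convertase of proglucagon in alpha cells, had 5381, 5020, 4966 and 5123 CPM in control replicates 1 to 4 and 4796, 4605, 4156 and 4172 CPM with IL-1β. It had 3603, 3510, 3566 and 3538 CPM with both agents and 4282, 4073, 4265 and 4489 CPM with butyrate. The control libraries were the highest and the libraries with both agents the lowest, and those with IL-1β and with butyrate lay between and overlapped. The log2 fold change was -0.21 ± 0.05 (edgeR FDR 0.00272) with IL-1β, -0.26 ± 0.05 (edgeR FDR 0.000287) with butyrate and -0.53 ± 0.05 (edgeR FDR 3.43e-09) with both agents against control. Both agents against IL-1β gave -0.32 ± 0.05 (edgeR FDR 2.62e-05) and both agents against butyrate -0.27 ± 0.05 (edgeR FDR 0.000242). The IL-1β call was lost without control replicate 1 (edgeR FDR 0.0138), IL-1β replicate 3 (0.0246) or IL-1β replicate 4 (0.0158), with scaling to Ppia (0.0542) or library size only (0.0135), and with the compared conditions only (0.0197). Scaling to Ppia also ended the call of both agents against butyrate (-0.21, edgeR FDR 0.0502). Exons of the antisense genes Pcsk2os1 and Pcsk2os2 overlap 5.16% of the 50-base stretches of the Pcsk2 transcript, and as the strand setting of the counting is not stated, reads there are uncertain.

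There were 0.168, 0.175, 0.157 and 0.157 counts of Pcsk1 per count of Pcsk2 in control replicates 1 to 4 and 0.288, 0.317, 0.326 and 0.318 with IL-1β, a 1.90-fold difference (exact permutation p = 0.0286, adjusted 0.0514). The ratio was 0.306, 0.367, 0.295 and 0.351 with both agents and 0.170, 0.163, 0.148 and 0.147 with butyrate. Butyrate thus left this ratio overlapping with that of its comparison group, both with IL-1β (exact permutation p = 0.429) and without it (p = 0.371).

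Pcsk1n (chromosome X, 7919822 to 7924410, plus strand), the gene of proSAAS, had 971, 840, 819 and 815 CPM in control replicates 1 to 4 and 1223, 1112, 931 and 1071 CPM with IL-1β. It had 1289, 1061, 1215 and 1266 CPM with both agents and 1123, 1087, 945 and 1008 CPM with butyrate. Control replicate 1 stood above the other 3 control libraries and overlapped the IL-1β and the butyrate libraries. IL-1β raised Pcsk1n 1.26-fold (log2 fold change 0.33 ± 0.08, edgeR FDR 0.00383) and both agents raised it 1.40-fold against control (0.49 ± 0.08, edgeR FDR 5.58e-05). The IL-1β call was lost without any 1 of control replicates 2, 3 and 4 (edgeR FDR 0.0138, 0.0152 and 0.0155) or of IL-1β replicates 1, 2 and 4 (0.0124, 0.0212 and 0.0108), and with scaling to Ppia (0.0177). Butyrate against control gave 0.27 (95% interval 0.10 to 0.44) with an edgeR FDR of 0.0141, just outside the threshold. It passed in 12 of 27 alternatives, DESeq2 (adjusted p 0.00211) included. Among these were the fits without control replicate 1 (0.00289) or butyrate replicate 3 (0.00777), and without IL-1β replicate 1 or 3 or replicate 2 of both agents. Libraries of IL-1β and of both agents are not compared here, and enter only the spread, the filter on low counts and the scaling. An exon of Eras on the opposite strand shares 4.01% of the 50-base stretches of Pcsk1n, with the same uncertainty.

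Cpe (chromosome 8, 64592542 to 64693054, minus strand), the carboxypeptidase, changed like Pcsk1 in direction. It had 6943, 6442, 6157 and 6078 CPM in control replicates 1 to 4 and 9242, 9665, 8128 and 7963 CPM with IL-1β. With both agents it had 7031, 7560, 6945 and 7220 CPM and with butyrate 5542, 5071, 5417 and 5123 CPM. The conditions did not overlap and had the same order as for Pcsk1, although the lowest library with both agents was barely above the highest control library. IL-1β raised Cpe 1.37-fold (log2 fold change 0.45 ± 0.06, edgeR FDR 1.51e-06) and butyrate lowered it to 82.6% of control (-0.28 ± 0.06, edgeR FDR 0.000859). Set against IL-1β alone, both agents gave -0.28 ± 0.06 (edgeR FDR 0.000693), and both agents against butyrate 0.44 ± 0.06 (edgeR FDR 2.27e-06). Both agents against control gave 0.17 (95% interval 0.04 to 0.29), which did not pass (edgeR FDR 0.0283). It passed in 6 of 27 alternatives, among them library size only (0.000211), upper-quartile scaling (0.00926), no filter (0.00127) and the compared conditions only (0.00817).

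Each of the 3 granins had a pattern of its own. Chgb (chromosome 2, 132781278 to 132795079, plus strand) changed most with IL-1β of the 10 genes, Chga changed with butyrate, and Scg2 went down with IL-1β and up with butyrate. Chgb had 1970, 1927, 1860 and 1970 CPM in control replicates 1 to 4 and 6477, 9247, 7764 and 9429 CPM with IL-1β. With both agents it had 7896, 9752, 9533 and 12600 CPM and with butyrate 2032, 1867, 2100 and 2123 CPM. The libraries with IL-1β lay far above those without it and were spread more widely, with an SD of 1386 CPM with IL-1β beside 51.7 CPM in control. The fold change was 4.26 with IL-1β against control (log2 fold change 2.09 ± 0.14, edgeR FDR 2.71e-08) and 4.90 with both agents against butyrate (2.29 ± 0.14, edgeR FDR 1.25e-08), and neither call was lost in any alternative. Both agents against IL-1β gave 0.27 (95% interval -0.01 to 0.55, edgeR FDR 0.135) and butyrate against control gave 0.07 (95% interval -0.21 to 0.35, edgeR FDR 0.738). Replicate 4 was the highest Chgb library and the lowest Ins1 library in all 4 conditions, though in control by a narrow margin for Chgb, and the lowest Ins2 library in all conditions but control. Per kilobase, Chgb was below Chga in every control library, and with IL-1β the libraries of both genes overlapped on that scale. With the union of exons as the length, Chgb (2364 to 3441) was above Chga (2014 to 2349) in every IL-1β library.

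Chga (chromosome 12, 102554969 to 102565028, plus strand) had 5722, 6055, 6061 and 6002 CPM in control replicates 1 to 4 and 5550, 6475, 6003 and 6174 CPM with IL-1β. It had 6829, 7518, 8067 and 8739 CPM with both agents and 7951, 7468, 8328 and 7900 CPM with butyrate. All libraries with butyrate were above all libraries without it. Butyrate raised Chga 1.33-fold against control (log2 fold change 0.41 ± 0.06, edgeR FDR 1.14e-05) and 1.29-fold in the presence of IL-1β (0.36 ± 0.06, edgeR FDR 5.46e-05). IL-1β gave 0.02 (95% interval -0.11 to 0.15, edgeR FDR 0.839) against control, and -0.02 (95% interval -0.15 to 0.10, edgeR FDR 0.859) in the presence of butyrate.

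Scg2 (chromosome 1, 79434669 to 79440120, minus strand) had 7846, 8131, 7845 and 7729 CPM in control replicates 1 to 4 and 7094, 7442, 6624 and 6020 CPM with IL-1β. With both agents it had 7415, 7755, 7143 and 6548 CPM and with butyrate 10179, 9698, 10400 and 9782 CPM. The butyrate libraries were above all others, the IL-1β libraries were below all control libraries, and the libraries with both agents overlapped both. Butyrate raised Scg2 1.27-fold against control (log2 fold change 0.34 ± 0.06, edgeR FDR 6.26e-05), and both agents against butyrate gave -0.47 ± 0.06 (edgeR FDR 6.58e-07). IL-1β against control gave -0.22 ± 0.06 with an edgeR FDR of 0.00756, a call that was lost without any 1 of the 4 control libraries (edgeR FDR 0.0137 to 0.0279) and without IL-1β replicate 3 (0.0342) or 4 (0.0501). It was also lost without replicate 1 (0.0125) or 3 (0.0149) of both agents, a condition not compared here. These libraries enter the spread, the filter on low counts and the scaling, and the log2 fold change became -0.20 in both fits. The call was lost too with library size only (0.0135) or scaling to Ppia (0.0385), in a fit that was not robust (0.0122) and with the compared conditions only (0.0272). For both agents set against IL-1β the log2 fold change was 0.09 (95% interval -0.04 to 0.21, edgeR FDR 0.295).

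The effect of butyrate with IL-1β was compared with its effect without IL-1β in the same model, which asks whether the effects of both agents add up on the log scale. Of the 10 genes, 0 were called in either direction, beside 0.0968% of all tested genes, 0.043% with a higher and 0.0538% with a lower butyrate effect under IL-1β (18 genes with edgeR, 52 with DESeq2, and 1362 at an unadjusted p under 0.05 in edgeR). Ins1 had the smallest edgeR FDR of the 10 (0.113), with a difference in log2 fold change of -0.39 (95% interval -0.59 to -0.19). Ins1 passed the threshold in 3 of the 26 alternatives tried. These were DESeq2 (adjusted p 0.00973), the fit without a filter on low counts (edgeR FDR 3.32e-06) and a block on the replicate number, whose value is given in the closing section. Scg2 was next, with -0.26 (95% interval -0.43 to -0.08, edgeR FDR 0.324). The intervals of Chga (-0.22 to 0.14), Cpe (-0.18 to 0.17), Pcsk1 (-0.09 to 0.27) and Pcsk2 (-0.21 to 0.09), which butyrate changed in both settings, each held 0.

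Other genes of the granule and its hormones were counted in 5 lists. All tested genes had 11.2% raised and 6.59% lowered with IL-1β, 8.52% and 11.4% with butyrate, and 8.41% and 11.1% with butyrate added to IL-1β, so that 1 call in a list of 7 or 8 genes is near the background. Of 8 further granule proteins, IL-1β raised 3, with a median log2 fold change of 0.13. They were Resp18 (0.49, edgeR FDR 0.000287) and the granule membrane proteins IA-2 and phogrin, encoded by Ptprn (0.30) and Ptprn2 (0.17). It lowered 1, Slc30a8, the zinc transporter that supplies the granule with zinc for insulin crystals. Slc30a8 had 401 to 484 CPM with IL-1β, below the 657 to 757 CPM of control libraries (log2 fold change -0.71, edgeR FDR 8.10e-09). Scg3 and Nucb2 were lowered by butyrate, and Nucb2 also when butyrate was added to IL-1β (-0.52), the only call of this list there.

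Among 8 other processing enzymes, IL-1β raised 4 and lowered 1. Cpd, a carboxypeptidase related to Cpe (0.37, edgeR FDR 3.59e-07), the amidating enzyme gene Pam (0.33), Furin (0.30) and Pcsk6 (0.56) were raised, and Pcsk5 was lowered (-1.09). Butyrate raised 0 of the 8 and lowered 4 against control, which were Cpd (-0.34), Pam (-0.32), Pcsk4 (-0.92) and Pcsk5 (-0.84). Pcsk4 had 41.8 to 46.5 CPM with butyrate, below the 73.3 to 86.9 CPM of control libraries. In the presence of IL-1β butyrate lowered 2, Cpd (-0.32) and Pcsk4 (-0.95).

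Of 7 genes of proinsulin folding, IL-1β raised 0 and lowered 2, Ero1lb (-0.78, edgeR FDR 6.93e-06), an oxidase that helps to form disulphide bonds in proinsulin, and Sel1l (-0.21). Ero1lb had 1855 to 1962 CPM in control islets, 909 to 1249 CPM with IL-1β and 2458 to 2731 CPM with butyrate, without overlap, and butyrate raised it (0.43, edgeR FDR 0.00232). The chaperone genes Hspa5 (-0.28) and Hsp90b1 (-0.21) were lowered by butyrate, and both were lowered with the same rounded values by butyrate on top of IL-1β, where P4hb was raised (0.21).

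Of 8 further islet hormones and peptides 7 were tested, Cck being too low. IL-1β raised 0 and lowered 2, Npy (-1.38, edgeR FDR 7.50e-05) and Ucn3 (-1.16, edgeR FDR 8.72e-16), which encodes the beta cell peptide urocortin 3. Ucn3 had 132 to 148 CPM with IL-1β, below the 296 to 322 CPM of control libraries. Sst, the somatostatin gene of delta cells, was raised by butyrate in the absence (0.55) and presence (0.61) of IL-1β, and Npy was lowered by it (-2.65 and -2.76). Butyrate alone also lowered Ucn3 (-0.28). Among the 41 tested genes of these 5 lists Npy changed most with butyrate, from 6.54 to 12.2 CPM in control islets to 0.816 to 1.85 CPM. Gcg, the glucagon gene of alpha cells, gave -0.02 with IL-1β, and was raised (0.25, edgeR FDR 0.00869) when butyrate was added to it.

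Of 11 transcription factors that act on the insulin genes or in beta cells, IL-1β lowered 3 and raised 4. Mafa (-0.84, edgeR FDR 0.00337), Pdx1 (-0.42, edgeR FDR 8.32e-08) and Nkx6-1 (-0.38) were lowered, and Neurod1 (0.41), Isl1 (0.40), Rfx6 (0.27) and Glis3 (0.21) were raised. Mafa, which binds an insulin enhancer, had 367 to 433 CPM in control islets, 177 to 265 CPM with IL-1β, 84.1 to 166 CPM with both agents and 331 to 433 CPM with butyrate. Butyrate on top of IL-1β lowered it further (-0.77, edgeR FDR 0.00620), and also lowered Isl1 (-0.23), and no other member of this list was called there. Butyrate alone raised Pdx1 (0.21) and lowered Isl1 (-0.38) and Rfx6 (-0.15).

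**Figure D5:**
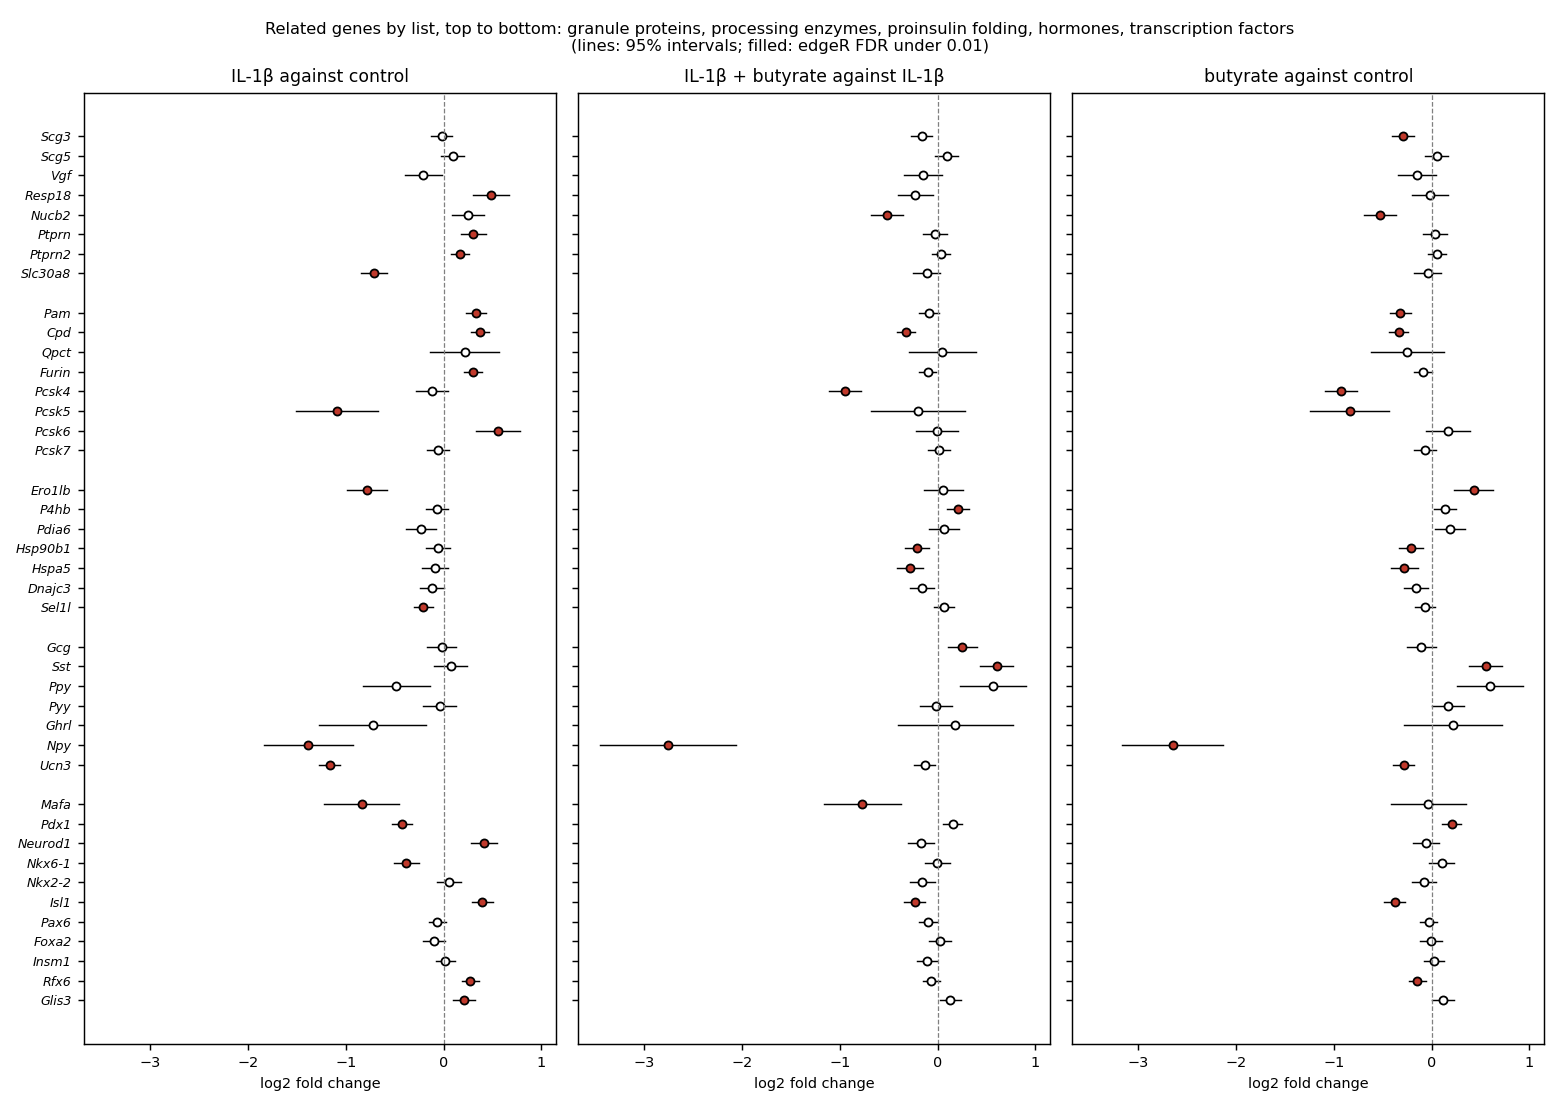
Log2 fold change (x axis) of the 41 tested genes of 5 related lists (y axis) in 3 comparisons, with 95% intervals as lines; filled points had an edgeR FDR under 0.01. Npy (-2.65), Pcsk4 (-0.92) and Pcsk5 (-0.84) stand furthest to the left with butyrate, and Npy (-1.38), Ucn3 (-1.16) and Pcsk5 (-1.09) with IL-1β.

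Genes with the pattern most like each hormone gene were found by the root mean square difference of log2 CPM over the 16 libraries, each gene centred on its own mean, among 5568 genes. For Ins1 these were Ppat (0.110), Btg1 (0.110) and Klhl7 (0.111), beside a spread of Ins1 itself of 0.285. For Ins2 they were Gng12 (0.109), Amd1 (0.113) and Sh3kbp1 (0.113), beside 0.422. For Iapp they were Tmem50a (0.0659), Mettl26 (0.0753) and Capzb (0.0873), beside 0.200. No gene was near both insulin genes in these lists, and Ins1 and Ins2 were not among each other's nearest 3.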

How the data were processed

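Single-end reads from 16 libraries, 4 in each of 4 conditions, were processed by the authors, who mapped them to the mouse genome GRCm38 (mm10) with STAR 2.5.3a and deposited whole-number counts of reads per gene without normalization. The annotation release, the strand setting and the filters on reads are not given in the sources used here. The table held 52636 genes and 0 columns of other samples. Libraries had 18635943 to 25955943 counts, and replicates differed by more than counting error (chi-square per gene 1.72 to 13.5). Reads carried no molecular identifiers, so intervals from counts cover counting error only. P-values measure the spread between pools of islets, since nothing ties a library to 1 mouse.

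Symbols and positions came from GENCODE M21. Genes with low counts were removed with filterByExpr (18587 left), scaled by TMM and tested in R 4.3.3 with edgeR 4.0.16, in 1 robust quasi-likelihood model of the 4 conditions, with Benjamini-Hochberg adjustment over all genes tested and the study's threshold of 0.01. SE values are the log2 fold change divided by the square root of F. Count ratios were compared with exact two-sided permutation tests (SciPy 1.17.1), adjusted over 9 tests. On simulated data for IL-1β against control (18221 genes), edgeR found 94 of 104 genes changed 2-fold and 66 of 96 changed 1.41-fold, with 1 false call. The simulation changed only 200 genes, none of them low in counts, up or down at random and with no effect of replicate. In the data 17.8% of tested genes were called, so the simulated number of false calls does not carry over. Alternatives were other scalings (RLE, upper quartile, library size only, without the 10 genes, Ppia), no filter, DESeq2 1.42.0, a fit that was not robust, the compared conditions only, a threshold of 0.05, a block on the replicate number, and each library left out in turn. All 10 genes are reported. Of the lists, the genes with the largest and smallest changes and those described by role are named, and for Ins1, Ins2 and Iapp the 3 genes nearest in pattern among those with an average log2 CPM of at least 5. The rule for the 10 genes uses their symbols alone, but it, the lists and the marker lists were drawn up with earlier results of these data known.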

Additional observations from a re-analysis of the deposited data

Results flagged for a closer look

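Pcsk1n in control islets was flagged because 1 library stood far from the others. Control replicate 1 had 971 CPM, while the other 3 control libraries had 815 to 840 CPM, and the gap made up 0.839 of the whole range of the group. Of 52 groups of 4 libraries that were looked at, 1 was flagged, and chance alone flags about 1 in 20. Without control replicate 1 the log2 fold change of Pcsk1n was 0.40 with IL-1β against control and 0.33 with butyrate against control.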

How the results depend on the processing

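Of the 35 calls of the 10 genes, 27 held in every alternative tried and 8 were lost in at least 1, at 40 of 945 values in all. No called value changed sign. The threshold of 0.05 is 1 of these alternatives. By construction it cannot end a call, and it passes every main FDR under 0.05. The 945 values also include fits that left out a library of a condition not compared. Counts of raised and lowered genes moved as follows. IL-1β against control lowered 2 genes with library size only, 1 scaled to Ppia and 1 with the compared conditions only, and leaving out 1 library at a time gave 3 to 5 raised and 1 to 4 lowered. Both agents against IL-1β raised 2 genes at an adjusted p under 0.05, with no filter and with the replicate block, and 1 to 2 with a library left out. Both agents against butyrate raised 5 genes with library size only and with no filter. For the difference of the butyrate effects 1 gene, Ins1, was lowered with no filter, with DESeq2 and with the replicate block (adjusted p 3.32e-06, 0.00973 and 0.00183).

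The 30 values that changed sign all belonged to differences that were not called. Upper-quartile scaling gave 0.036 for Ins1 with butyrate against control and -0.011 for Chga with IL-1β against control. Scaling to Ppia gave -0.025 for Ins2 with both agents against IL-1β, -0.013 for Chgb with butyrate against control, 0.040 for Chga with both agents against butyrate, and for the difference of the butyrate effects 0.047 for Cpe and 0.011 for Chga. Library size only gave 0.031 for Cpe in that difference and 0.078 for Chga with both agents against butyrate, and no filter gave 0.0049 and 0.0011 for the same values. With a library left out, Ins1 ran from -0.052 to 0.018 with butyrate against control, Ins2 from -0.086 to 0.071 with both agents against IL-1β, Cpe from -0.064 to 0.044 for the difference, and Chga from -0.011 to 0.074 with IL-1β against control and from -0.085 to 0.033 with both agents against butyrate. The cause of these changes was not tested.

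Over all genes, the share of raised among called genes moved with scaling. In IL-1β against control 2087 were raised and 1224 lowered, beside 1914 and 1800 with the upper quartile and 2800 and 707 with library size only. In both agents against IL-1β 1563 were raised and 2066 lowered, beside 2137 and 1566 with the upper quartile. In butyrate against control 1584 were raised and 2112 lowered, beside 2207 and 1566 with the upper quartile and 815 and 2669 scaled to Ppia. In both agents against butyrate 1844 were raised and 903 lowered, beside 1612 and 1420 with the upper quartile, 3156 and 451 with library size only, and 1978 and 387 scaled to Ppia. In both agents against control 2937 were raised and 2751 lowered, beside 3803 and 1888 with library size only. Scaling moved the median of all genes by at most 0.098. For the difference of the butyrate effects 18 genes were called, beside 39 at 0.05, 95 with no filter, 52 with DESeq2 and 132 with the replicate block, and its split of 8 higher and 10 lower became 10 and 8 with library size only.

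The replicate numbers were not used to pair libraries. The study names 4 independent experiments for these data, but neither it nor the labels say that a replicate number marks one of them across conditions. Deviations of same-numbered libraries correlated at 0.0535 to 0.397, over 0.1 in 13 of 20 pairs, and no comparison had all 4 pairs over 0.1. The column headers number the libraries so that the 4 conditions of a replicate follow each other, which does not name a batch. As a hint from the data and not the labels, libraries correlated best with their own number, out of 4 in the other condition, in 35 of 40 cases. Only both agents against butyrate had this in all 8 cases. The block added the calls of Iapp with both agents against IL-1β (adjusted p 0.00522), Pcsk1n with butyrate against control (7.37e-05) and with both agents against butyrate (0.00136), Cpe with both agents against control (0.00407) and Ins1 for the difference of the butyrate effects, and ended none. For the ratios the mean difference within same-numbered pairs is by construction the difference of the means (0.46, -0.41 and -0.17 on the log2 scale for Ins1 to Ins2), and exact tests cannot go below p = 0.0286 with 4 libraries a group or 0.0571 with 3 against 4, so a ratio cannot reach 0.05 once a library is left out. Depth was not limiting for the 10 genes, which had at least 12085 counts in every library.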
